A study of Mus musculus with 12 samples.

Results

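The clustered histone genes were taken as all genes whose symbol begins with Hist1h, Hist2h, Hist3h or Hist4h, without those marked -ps as pseudogenes. The rule gave 69 of the 53715 genes in the table, 6 of them for H1, 20 for H2A, 18 for H2B, 12 for H3 and 13 for H4. The testis forms Hist1h1t, Hist1h2aa and Hist1h2ba are described apart. RNA came from sorted spermatogonia of mice of a C57BL6/129 strain background, 1000 cells per library, amplified with Smart-seq2. The 4 groups, with 3 libraries each, were WT and Tet1KO animals at 3 months and WT and Tet1KO animals at 11 months. Tet1KO denotes loss of Tet1, the gene of a DNA 5-methylcytosine dioxygenase, and the labels do not describe the allele. Nor do they say whether the 3 libraries per group are from different animals, and the p-values then describe only how these libraries vary, which can be technical.

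Replication-dependent histone genes supply the histones that package newly copied DNA, and their transcription is tied to S phase. Their mRNAs usually end in a short stem-loop, bound by SLBP, in place of a poly(A) tail, whereas replacement histone genes such as H3f3b yield polyadenylated mRNA in all cell cycle phases. Smart-seq2 primes reverse transcription on poly(A), so levels here describe the histone transcripts that this chemistry captured. In the male germ line, testis histones begin to replace the somatic forms before transition proteins and protamines take over in spermatids.

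Total counts ran from 8325159 to 18223645 per library, and the 69 members held between 0.0792% and 0.133% of them. A count of 0 allows up to 3 counts, or 0.161 to 0.402 CPM (the counts of a gene relative to the TMM-scaled library size) depending on the library, and this limit covers counting error only. The 10 spermatogonial markers summed to between 2790 and 4140 CPM and none was at 0 throughout. Dazl and Stra8 were the highest of them (medians 2020 and 646 CPM), while Zbtb16 and Lin28a had medians of 7.37 and 5.66 CPM. Meiotic markers summed to between 1520 and 4480 CPM. Spermatid markers summed to between 354 and 3230 CPM. Tet1 ranged from 0 to 1.64 CPM in WT and from 0.593 to 1.73 CPM in Tet1KO at 3 months, then from 0.0631 to 0.933 and 0.0616 to 1.71 CPM at 11 months, so its level did not check the genotype labels. WT replicate 1 and Tet1KO replicate 2 of 3 months stood apart from the other 10 libraries at one end of the first principal component, which held 39% of the variance.

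A search of the members' transcripts for the histone stem-loop, a stem of 6 base pairs around a 4-base loop, found it in 46 of the 69 members. Only annotated transcripts were searched, and several members without a match have short models, such as Hist1h2ah with 405 bases. A stem-loop beyond an annotated end would be missed, so no match does not show that a gene lacks it. The stretches below show the form found in H2A genes, in the H2B gene Hist1h2bk and in the H4 gene Hist1h4i, all of which recur in the results. They were read from GRCm38, the assembly behind mm10, at chr13:22042476-22042505 on the minus strand for Hist1h2ag, chr13:22036293-22036322 on the plus strand for Hist1h2bk and chr13:22040959-22040988 on the minus strand for Hist1h4i. Capitals mark the stem-loop.
Hist1h2ag: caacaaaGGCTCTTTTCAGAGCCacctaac
Hist1h2bk: caccaaaGGCTCTTTTAAGAGCCactaaac
Hist1h4i: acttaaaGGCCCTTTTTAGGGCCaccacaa
The form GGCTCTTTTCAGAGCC was the most frequent in H1, H2A, H2B and H3, with 3, 10, 7 and 5 genes. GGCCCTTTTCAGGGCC was the most frequent in H4, with 7 genes.

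The highest and the fourth highest member by level, Hist1h2ap and Hist1h2ao, also carried a run of 12 adenines that ended directly at the stem-loop. The stretches are chr13:21833029-21833058 on the minus strand and chr13:21810884-21810913 on the plus strand, and capitals here mark the adenines.
Hist1h2ap: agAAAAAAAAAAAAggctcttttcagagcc
Hist1h2ao: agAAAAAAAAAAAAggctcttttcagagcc
The longest run within the 30 bases up to the stem-loop was 3 adenines in Hist1h2ag, which ranked near them in level. Hist1h2ah, which ranked between them, had a longest run of 2 in its annotated transcript. Long runs also occurred in genes of low level. Hist1h3c had 7 adenines ending at the stem-loop at 0.541 CPM per kb, and Hist1h2ac had 15 after it at 1.04 CPM per kb. Whether priming on such a run contributes to the counts was not tested.

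With all members included, also those with shared sequence described below, H2A genes held most of the clustered histone signal. Summed over members and divided by gene length, their level was 88.9% of the total in the median library and ranged from 86.1% to 92.6%. H4 followed with 4.78% (3.17 to 6.4%), H2B with 2.74% (1.91 to 5.55%), the testis members with 2.42% (1.21 to 3.84%), H1 with 0.364% and H3 with 0.314%. The ranges of H4, H2B and the testis members overlapped, so their order is not fixed over libraries. The 4 genes Hist1h2ap, Hist1h2ah, Hist1h2ag and Hist1h2ao held between 58.0% and 75% of all member counts.

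Many members have long stretches of sequence in common with other genes. How the reads of near-identical genes were placed is not known from the sources, and the part of shared sequence in the counts was not tested. The median share of 75-base windows of a member's transcripts that also occur in another gene was 71.6% for H2A, 59.0% for H3, 42.2% for H2B, 24.6% for H4 and 0.8% for H1. A model that overlaps a member counts as another gene here, on either strand, so part of this share can be the member's own sequence. Without the members that share over 75% of their windows, 50 remained and H2A held 37.8% in the median library (24.8 to 59.9%). All 20 H2A members also overlap another annotated gene, most often a short model on the opposite strand, and the counting did not use strand. Leaving out every overlapping member leaves no H2A gene, 49.3% for H4 and 28.5% for H2B.

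**Figure D1:**
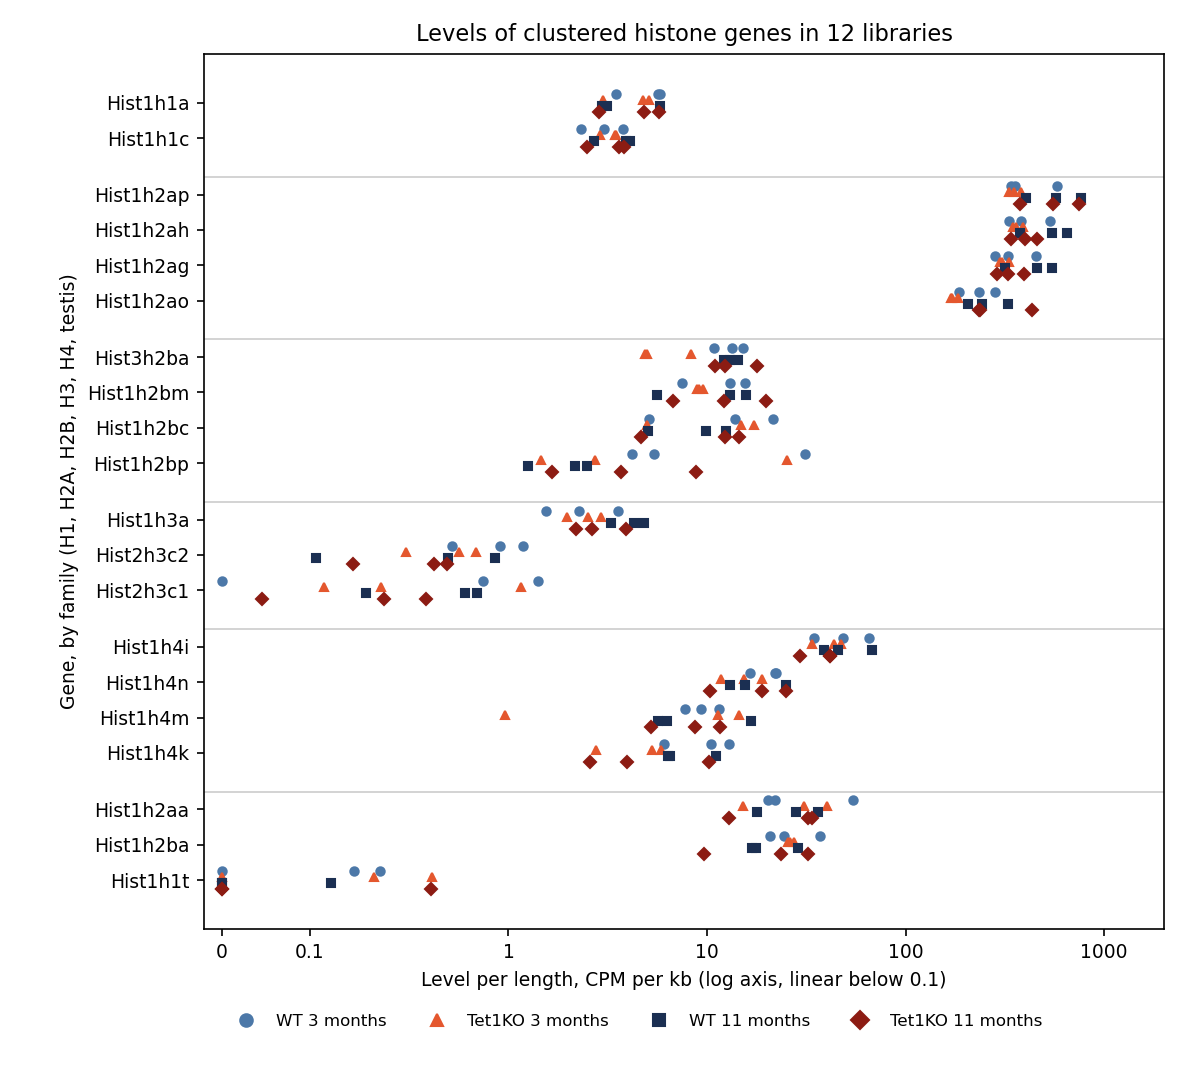
Level per length in CPM per kb (log axis, linear below 0.1) of the testis members and of up to 4 tested members per family with the highest mean, 1 symbol per library and 1 colour and shape per group. The 4 H2A genes lie between 169 and 763 CPM per kb, above every other gene shown.

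Hist1h2ap (chr13:21833026-21833507, minus strand), which encodes a core H2A protein, had the highest mean level, 479 CPM per kb, and ranked 145 among the 37425 genes with a count. It stood at 164, 171 and 279 CPM in WT and at 169, 160 and 185 CPM in Tet1KO at 3 months. At 11 months it stood at 195, 276 and 368 CPM in WT and at 265, 182 and 360 CPM in Tet1KO. The groups overlapped in both genotype comparisons and in both age comparisons.

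Hist1h2ao (chr13:21810465-21810944, plus strand) shares 93.1% of its windows with another gene. It stood at 112, 89 and 136 CPM in WT and at 80.9, 82 and 87.7 CPM in Tet1KO at 3 months, then at 98.3, 116 and 157 and at 113, 114 and 209 CPM at 11 months. The 3 Tet1KO libraries of 3 months were the lowest of all 12. Its count was 0.421 to 0.683 times that of Hist1h2ap in the same library.

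Hist1h2ag (chr13:22042460-22042944, minus strand) and Hist1h2ah (chr13:22035164-22035568, minus strand) gave nearly the same count in every library, with a ratio between 0.993 and 1.03. Hist1h2ah shares 91.5% of its windows with another gene, most with Hist1h2ad, and Hist1h2ag shares 77.6%, most with Hist1h2ao. The part of shared sequence, and of any fragments counted for both genes, in their equal counts was not tested. Hist1h2ag had 172 ± 43.2 CPM (SD, n = 3) in WT against 151 ± 8.35 CPM in Tet1KO at 3 months, followed by 214 ± 55.8 CPM in WT against 163 ± 26.1 CPM in Tet1KO at 11 months. Without Hist1h2ah, the median share of H2A in the summed level was 85.9%.

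**Figure D2:**
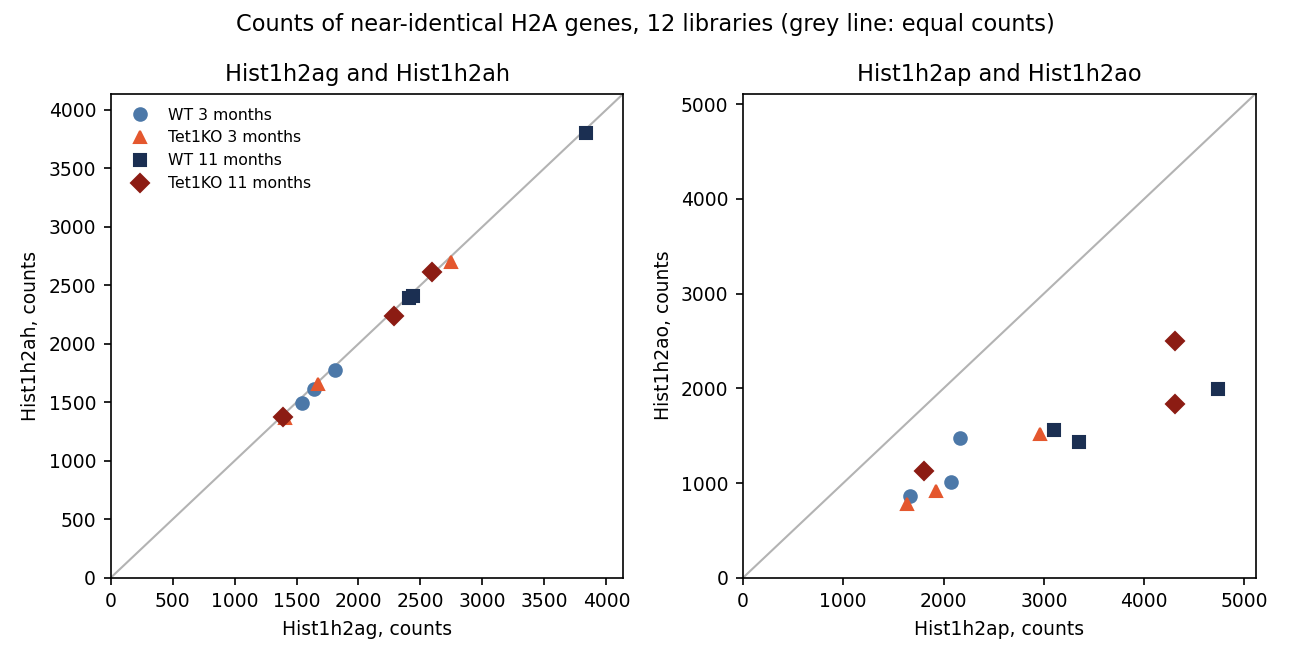
Raw counts of Hist1h2ah against Hist1h2ag (left) and of Hist1h2ao against Hist1h2ap (right), 1 symbol per library, with a grey line at equal counts. The first pair lies on the line in all 12 libraries, while Hist1h2ao stays below Hist1h2ap, at 0.421 to 0.683 times its count.

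Other H2A genes were high in single libraries. Hist1h2af stood at 13.2 CPM in WT replicate 2 of 11 months, while the next highest library had 1.86 CPM. Hist1h2aj, annotated as an unprocessed pseudogene in GENCODE vM21, reached 168 CPM in Tet1KO replicate 3 of 11 months against 67 CPM in the next library. Hist1h2ak reached 104 CPM in that same library against 60.1 CPM. Hist1h2al is the other member annotated as a pseudogene, and the remaining 67 are protein coding.

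H2B genes lay far lower. Hist3h2ba (chr11:58948920-58949533, plus strand), a core H2B gene of the small cluster on chromosome 11, had the highest mean level of the tested H2B genes outside the testis, 11.5 CPM per kb, with 13.9% of its windows shared. Hist1h2bm and Hist1h2bc had mean levels of 11.4 and 11.3 CPM per kb, and Hist1h2bp of 7.53 CPM per kb. The first 3 did not differ beyond the spread of their libraries. Of the 18 H2B members, 10 passed the filter on low counts.

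H4 was led by Hist1h4i (chr13:22040636-22041362, minus strand), at a mean of 44.8 CPM per kb. Its stem-loop is followed by 330 bases of annotated transcript, with a match to a poly(A) signal somewhere in them. Such a match also occurred in H4 genes of lower level, such as Hist1h4a at 3.61 and Hist1h4d at 2.25 CPM per kb. It was absent from Hist1h4n and Hist1h4m. Hist1h4i had 35.9 ± 11.2 CPM (SD, n = 3) in WT against 30.3 ± 5.11 CPM in Tet1KO at 3 months, followed by 36.9 ± 11.0 CPM in WT against 27.2 ± 5.15 CPM in Tet1KO at 11 months. Hist1h4n, Hist1h4m and Hist1h4k followed at 17.9, 9.12 and 7.01 CPM per kb, and they share 83.4%, 89.0% and 68.1% of their windows with another gene. Hist1h4i shares 22.4%.

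H1 and H3 genes had the lowest summed levels of the families. Of 6 H1 members, Hist1h1a and Hist1h1c, genes of linker histones, passed the filter, at mean levels of 4.42 and 3.29 CPM per kb. Of 12 H3 members, Hist1h3a, Hist2h3c2 and Hist2h3c1 passed, at 2.99, 0.559 and 0.484 CPM per kb, and 7 had under 50 counts over all libraries. The replacement gene H3f3b stood at 1810 CPM per kb and H3f3a at 283 CPM per kb. The replacement linker gene H1f0 stood at 55.3 CPM per kb. H2afz, the gene of the variant H2A.Z, stood at 418 CPM per kb, within the range of the highest clustered H2A genes.

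**Figure D3:**
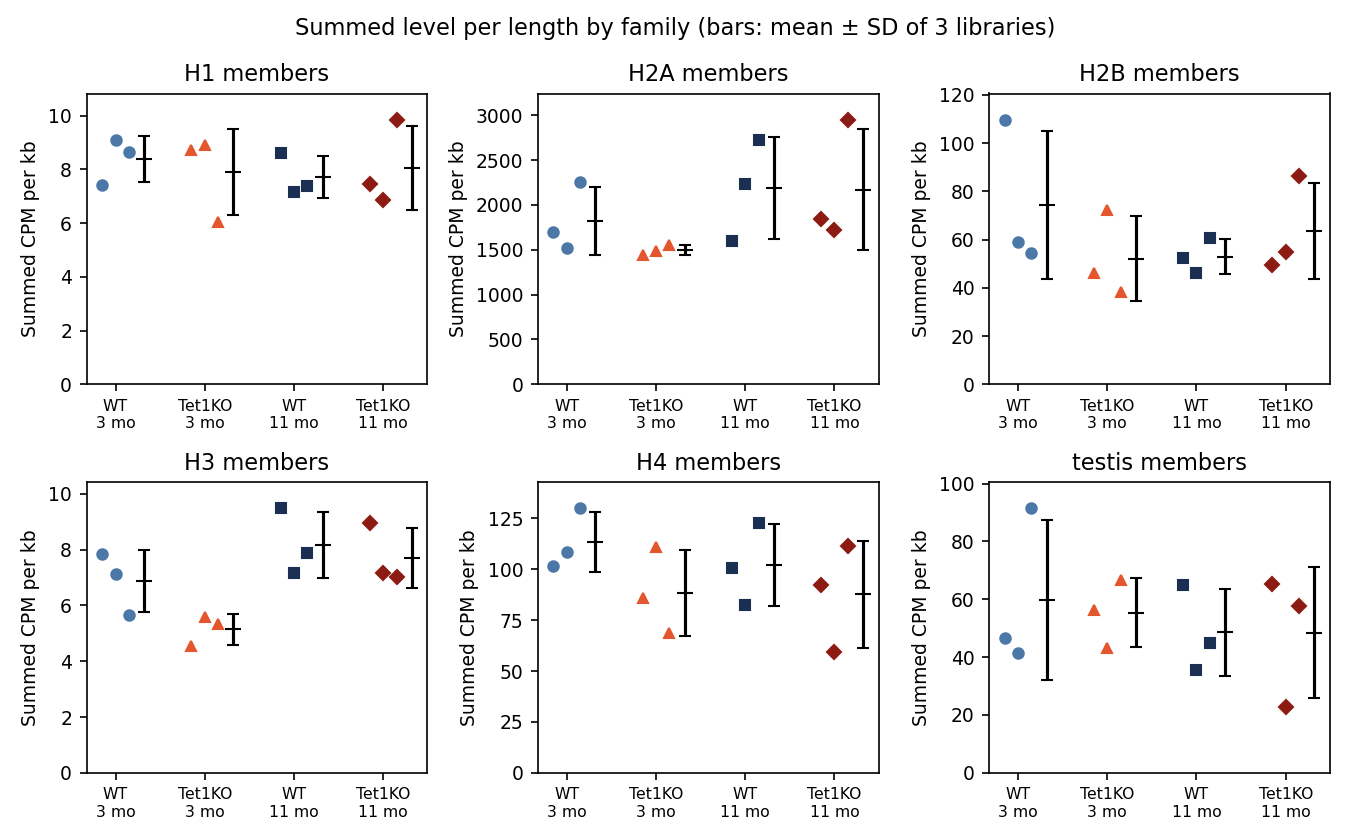
Summed level per length (CPM per kb, linear axis from 0) of each family, testis members apart, by group, with 1 symbol per library and bars for the mean ± SD of 3 libraries. H2A sums run from 1450 to 2950 CPM per kb, while H1 and H3 sums stay below 10 CPM per kb in all libraries.

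Among the testis members, Hist1h2aa and Hist1h2ba encode the testis forms of H2A and H2B (TH2A and TH2B). They lie side by side in opposite directions on chromosome 13, and RefSeq places their starts 280 bases apart. The RefSeq sequence from 250 bases before to 50 bases after the start of Hist1h2ba (RefSeq H2bc1, GRCm38.p6, chr13:23934107-23934406, minus strand) covers 250 of those 280 bases and ends before the start of Hist1h2aa, and it is shown for this position between the genes. Capitals mark matches, on either strand, to the octamer ATTTGCAT, to CCAAT and to TATAAA.
Hist1h2ba promoter: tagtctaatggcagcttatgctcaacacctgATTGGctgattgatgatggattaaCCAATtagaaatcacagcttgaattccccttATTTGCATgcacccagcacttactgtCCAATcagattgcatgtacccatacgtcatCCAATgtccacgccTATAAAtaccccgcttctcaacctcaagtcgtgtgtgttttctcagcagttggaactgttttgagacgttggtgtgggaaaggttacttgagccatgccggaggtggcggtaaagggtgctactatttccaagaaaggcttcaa
The octamer occurred in 1.7% of 32851 RefSeq promoters of this length, in 36.8% of those of H2A members, in 41.2% of those of H2B members and in none of H1, H3 or H4. CCAAT occurred in 37.4% of all promoters, in all of those of H1, H2A, H2B and H3 members and in 25.0% of those of H4 members. A match is a description of the letters and not of binding. Promoters of neighbours such as Hist1h2aa and Hist1h2ba overlap, so a site can be counted for both genes, and these shares are not of separate sites. RefSeq promoters were matched for 62 members.

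Hist1h2aa (chr13:23934462-23934851, plus strand) stood at 8.54, 7.9 and 21.2 CPM in WT and at 12, 5.88 and 15.7 CPM in Tet1KO at 3 months. At 11 months it stood at 14.2, 7 and 11 CPM in WT and at 12.6, 5.02 and 13.2 CPM in Tet1KO. Hist1h2ba (chr13:23933773-23934156, minus strand) had 10.5 ± 3.27 CPM (SD, n = 3) in WT against 10.2 ± 0.378 CPM in Tet1KO at 3 months, followed by 8.07 ± 2.52 CPM in WT against 8.42 ± 4.4 CPM in Tet1KO at 11 months. Both genes overlapped between genotypes at both ages.

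The log2 fold change of Hist1h2aa in Tet1KO against WT was -0.17 ± 0.51 (SE) at 3 months and -0.06 ± 0.50 at 11 months, and that of Hist1h2ba was -0.05 ± 0.40 and 0.06 ± 0.40. The direction of each turned when a library was left out or in another fit. Spermatid marker sums ranged from 564 to 3230 CPM in WT and from 728 to 1750 CPM in Tet1KO at 3 months, and their part in these levels was not tested.

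Hist1h1t, the gene of the testis linker histone of meiotic cells, was not tested. It had no count in 6 of the 12 libraries and at most 7 counts, in Tet1KO replicate 2 of 3 months.

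All tests used edgeR's quasi-likelihood test with Benjamini-Hochberg adjustment over 19815 genes, of which 43 were members. No member and no other gene passed an adjusted p of 0.05 in any of the 6 comparisons (percent called 0), and DESeq2 and limma-voom called no member either. At an unadjusted p under 0.05, Tet1KO against WT held 2 of 43 members at 3 months (background 1.14% of all genes), 2 at 11 months (background 1.65%) and 2 averaged over both ages (background 1.43%). Age held 3 members in WT (background 5.67%) and 6 in Tet1KO (background 2.33%). The difference of the genotype effect between ages held 4 (background 1.57%).

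At 3 months, values of the clustered histone genes were mostly lower in Tet1KO than in WT. Of 43 tested members, 32 had a lower value and the median log2 fold change was -0.24, while 10533 of all 19815 genes had a lower value and their median was -0.02. H2B had 9 lower of 10 (median -0.42) and H4 9 of 10 (median -0.32), with Hist1h2ba counted among H2B, while H2A had 11 of 18 (median -0.18). Many members have sequence in common and all were read in the same libraries, so these are not counts of independent genes. Scaled by total counts alone, 30 members, 7 H2B and 9 H4 genes were lower. Leaving out 1 library of 3 months gave between 27 and 35 lower members, and without WT replicate 1 the H2B count was 6 of 9. Sertoli cell markers moved in the same direction, with all 13 tested at lower values and a sum of 106 to 305 CPM in WT against 32.4 to 98.8 CPM in Tet1KO. None of the 15 was at 0 in all libraries. Leukocyte and macrophage markers had lower values in 14 of 15 cases (median -0.38), spermatid markers in 12 of 16 (median -0.36) and meiotic markers in 9 of 15 (median -0.13). Other lists went the other way. Values were higher for 5 of 7 peritubular myoid markers (median 0.34) and 5 of 7 tested Leydig cell and stroma markers (median 0.13). Spermatogonial markers were higher in 7 of 10 cases (median 0.12). The part of these lists in the histone values was not tested. In these bulk samples, fewer cells of a type or of a cycle phase and less RNA per cell cannot be told apart.

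Hist3h2ba had the smallest p of the members at 3 months. It stood at 8.24, 9.34 and 6.71 CPM in WT and at 3, 3.07 and 5.1 CPM in Tet1KO, and the groups did not overlap. The log2 fold change was -1.12 ± 0.30 (SE), with an unadjusted p of 0.0032 and an adjusted p of 1 in edgeR. At 11 months the values were 7.44, 8.05 and 8.77 CPM in WT and 6.77, 7.53 and 10.9 CPM in Tet1KO, which overlapped.

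Hist1h2bk, another core H2B gene, stood at 4.08, 1.03 and 1.34 CPM in WT and at 0.723, 0.647 and 0.673 CPM in Tet1KO at 3 months. The Tet1KO libraries were all lower, and WT replicate 1, at one end of the first principal component, was the highest of that age. The log2 fold change was -1.66 ± 0.59 (SE), with an unadjusted p of 0.0165 and an adjusted p of 1 in edgeR, and was -0.79 without WT replicate 1. It shares 72.6% of its windows with another gene.

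The next members by p at 3 months were Hist1h4j, Hist1h4k and Hist1h2ak, with log2 fold changes of -1.11 ± 0.56, -1.06 ± 0.58 and -1.36 ± 0.75 (SE). Hist1h4j had -1.87 without Tet1KO replicate 2 and Hist1h2ak -0.64 without WT replicate 1. Groups did not overlap for 7 of 43 members (16.3%), against 6.94% of all genes, and Tet1KO was the lower group in all 7. They were Hist3h2ba, Hist1h2bk, Hist1h2bj, Hist1h4j, Hist1h4k, Hist1h2ad and Hist1h2ao.

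At 11 months 21 members had higher and 22 lower values in Tet1KO, so 48.8% were higher, against 53.8% of all genes. H2B had 8 higher of 10, with a median log2 fold change of 0.19, H4 had 5 of 10, and the 3 tested H3 genes were all lower, with a median of -0.50. Without Tet1KO replicate 3 of that age 26 of 41 members were lower, and without Tet1KO replicate 2 26 of 43 were higher. H2B had 5 higher of 9 without WT replicate 2 or without Tet1KO replicate 3, 10 of 10 without Tet1KO replicate 2 and 6 of 10 with limma-voom. Groups did not overlap for 2 members (4.65%), Hist1h4a and Hist1h2bk, both higher in Tet1KO, against 5.36% of all genes. Peritubular myoid markers also differed between these groups, with all 7 at lower values and a sum of 72.2 to 244 CPM in WT against 23.2 to 55.4 CPM in Tet1KO. All 15 leukocyte and macrophage markers had higher values in Tet1KO (median log2 fold change 0.74), with sums of 91.2 to 1110 CPM in WT and 518 to 1070 CPM in Tet1KO. All 16 spermatid markers also had higher values (median 0.40), with sums of 354 to 2820 and 479 to 2600 CPM. None of these 3 lists had a gene at 0 in all libraries, and their part was not tested.

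Hist1h2ad, a core H2A gene, had the smallest p at 11 months and over both ages. It stood at 7.13, 20.2 and 18.4 CPM in WT and at 7.33, 7.63 and 7.44 CPM in Tet1KO, so WT replicate 1 lay below the Tet1KO libraries. The log2 fold change was -1.03 ± 0.33 (SE), with an unadjusted p of 0.00971 and an adjusted p of 1 in edgeR. At 3 months it stood at 11, 14.6 and 13.7 CPM in WT against 10.1, 8.19 and 7.79 CPM in Tet1KO, which did not overlap. Averaged over both ages the log2 fold change was -0.81 ± 0.23, with an unadjusted p of 0.0051 and an adjusted p of 1 in edgeR. Hist3h2ba followed at -0.53 ± 0.21.

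Hist1h2af had a log2 fold change of -1.96 ± 0.90 (SE) at 11 months, which rests on WT replicate 2 and was 0.16 without it. Hist1h2bk had 1.12 ± 0.57, with 1.26 ± 0.265 CPM (SD, n = 3) in WT against 2.76 ± 1.16 CPM in Tet1KO. Hist1h2aj had 0.98 ± 0.53, which was 0.10 without the single library of 168 CPM, and Hist1h2ag had -0.39 ± 0.22.

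**Figure D4:**
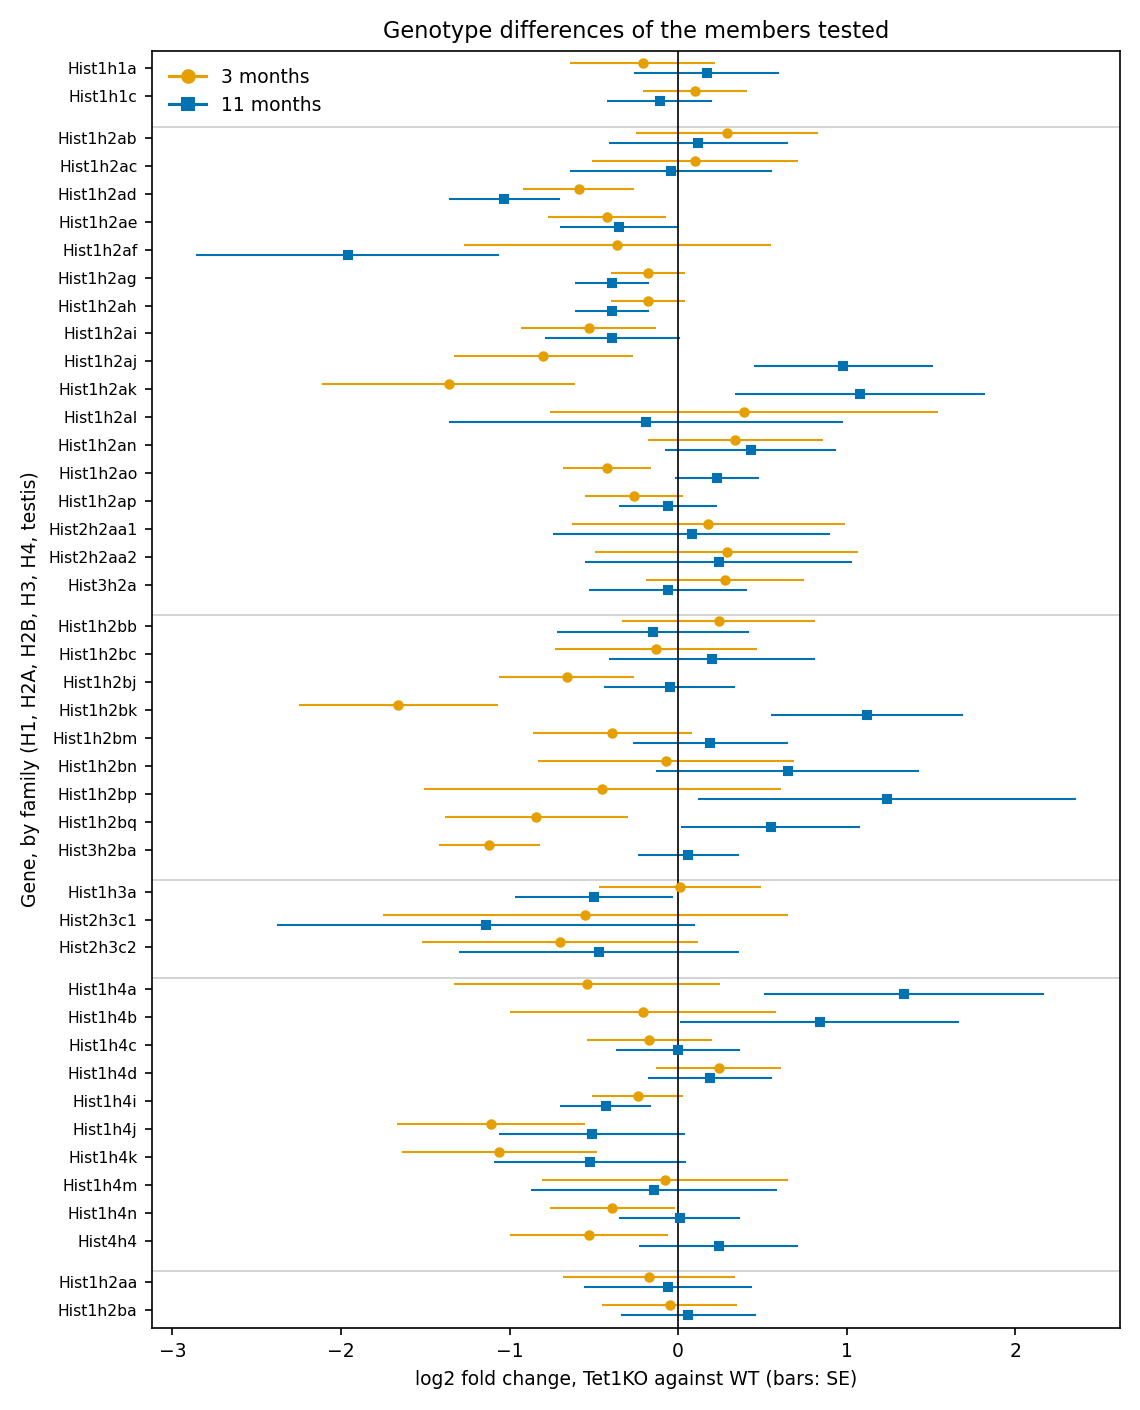
Log2 fold change of Tet1KO against WT (bars, SE) for the 43 tested members by family, circles at 3 months and squares at 11 months. Most circles of H2B and H4 lie left of 0 (9 of 10 each), while the squares fall on both sides.

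Between ages in WT, 27 of 43 members had a lower value at 11 months, with 9 of 10 in H2B and 8 of 10 in H4. Of all 19815 genes, 11166 also had a lower value. A higher value was found in 43.6% of all genes and in 37.2% of the members. These counts depended on single libraries, since without WT replicate 1 of 3 months H2B had 4 lower of 9, and without WT replicate 2 of 11 months 5 of 9. The 3 smallest p-values belonged to Hist1h4a, Hist1h2bp and Hist1h2af, with log2 fold changes of -2.18 ± 0.84, -2.79 ± 1.15 and 2.02 ± 0.91 (SE) and an adjusted p of 0.774 in edgeR. Hist1h2bp stood at 22, 3.8 and 2.95 CPM at 3 months, against 0.883, 1.75 and 1.53 CPM at 11 months. Without WT replicate 1 of 3 months, the log2 fold change was -1.17 for Hist1h4a and -1.28 for Hist1h2bp. Hist1h2af turned to -0.11 without WT replicate 2 of 11 months. Hist1h4b and Hist1h3a followed with -1.71 ± 0.84 and 0.75 ± 0.48. Groups did not overlap for 2 members (4.65%), Hist1h4b and Hist1h2bp, against 11.5% of all genes. Meiotic markers had lower values at 11 months in 14 of 15 cases, with sums of 2180 to 4480 CPM at 3 months and 1960 to 2810 CPM at 11 months. All 16 spermatid markers (median log2 fold change -0.69) and 12 of 13 tested Sertoli cell markers (median -1.0) also had lower values, and the part of these lists was not tested.

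In Tet1KO, 24 of 43 members (55.8%) had a higher value at 11 months than at 3 months, against 48.0% of all genes. Without Tet1KO replicate 3 of 11 months, 15 of 41 did, and without Tet1KO replicate 2 of 3 months, 30 of 41 did. Groups did not overlap for 5 members (11.6%), against 6.2% of all genes. Of these, Hist3h2ba, Hist1h2bk, Hist1h2bq and Hist1h2ao were higher at 11 months and Hist1h2ad was lower. The log2 fold change was 1.18 ± 0.30 (SE) for Hist3h2ba and 2.0 ± 0.60 for Hist1h2bk, with unadjusted p-values of 0.0023 and 0.00589 and adjusted p of 1 in edgeR. Hist1h2ao had 0.80 ± 0.26, and Hist1h2aj and Hist1h2ak had 1.54 ± 0.54 and 2.11 ± 0.77, which were 0.66 and 1.31 without Tet1KO replicate 3 of 11 months. All 15 leukocyte and macrophage markers had higher values at 11 months (median 0.84), with sums of 340 to 724 CPM at 3 months and 518 to 1070 CPM at 11 months. All 7 peritubular myoid markers had lower values (median -2.74, 6 at an unadjusted p under 0.05), with sums of 79.6 to 375 and 23.2 to 55.4 CPM. The part of both in the histone values was not tested. This comparison uses the same Tet1KO libraries of 3 months as the genotype comparison above, so both sets of values depend on them.

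The difference of the genotype effect between the ages had its smallest p among members in Hist1h2bk, at 2.78 ± 0.82 (SE) on the log2 scale with an unadjusted p of 0.00573 and an adjusted p of 1 in edgeR. Hist3h2ba followed at 1.18 ± 0.42, then Hist1h2aj at 1.78 ± 0.75, Hist1h2ak at 2.43 ± 1.06 and Hist1h2bq at 1.39 ± 0.76. Without WT replicate 1 of 3 months the difference was 1.91 for Hist1h2bk and 1.71 for Hist1h2ak. Without Tet1KO replicate 3 of 11 months it was 0.87 for Hist1h2aj and 1.6 for Hist1h2ak.

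The 2 libraries that stood apart shared a set of high histone genes. In 6 of 43 tested members (14%) both libraries lay above all other 10, as did 15.6% of all tested genes, so the share of members was near the background. Hist1h2bp was at 22 CPM in WT replicate 1 and 18 CPM in Tet1KO replicate 2 of 3 months, against 0.883 to 6.23 CPM elsewhere. Hist2h2aa1 was at 18.4 and 22.5 CPM, against 2.36 to 6.63 CPM. The other 4 were Hist1h4a, Hist1h2al, Hist2h2aa2 and Hist3h2a. Hist2h2aa1 and Hist2h2aa2 share all of their windows with another gene, most with Gm20633, which overlaps Hist2h2aa1, and with Hist2h2aa1. Meiotic markers summed to 4480 and 3850 CPM in these 2 libraries and to between 1520 and 4080 CPM in the others. Sycp3, at 463 to 2100 CPM over all libraries, is a large part of that sum, which need not follow other genes of the list. Among these, Ldhc ran from 47.3 to 1590 CPM with a median of 139 CPM. Peritubular myoid markers summed to 362 and 375 CPM against 23.2 to 282 CPM, which do not overlap. Sertoli cell markers were at 305 and 98.8 CPM against 25.4 to 156 CPM. For spermatid markers the sums were 3230 and 1750 CPM against 354 to 2820 CPM. Sums of leukocyte and of stroma markers lay within the range of the others. The part of these lists was not tested.

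**Figure D5:**
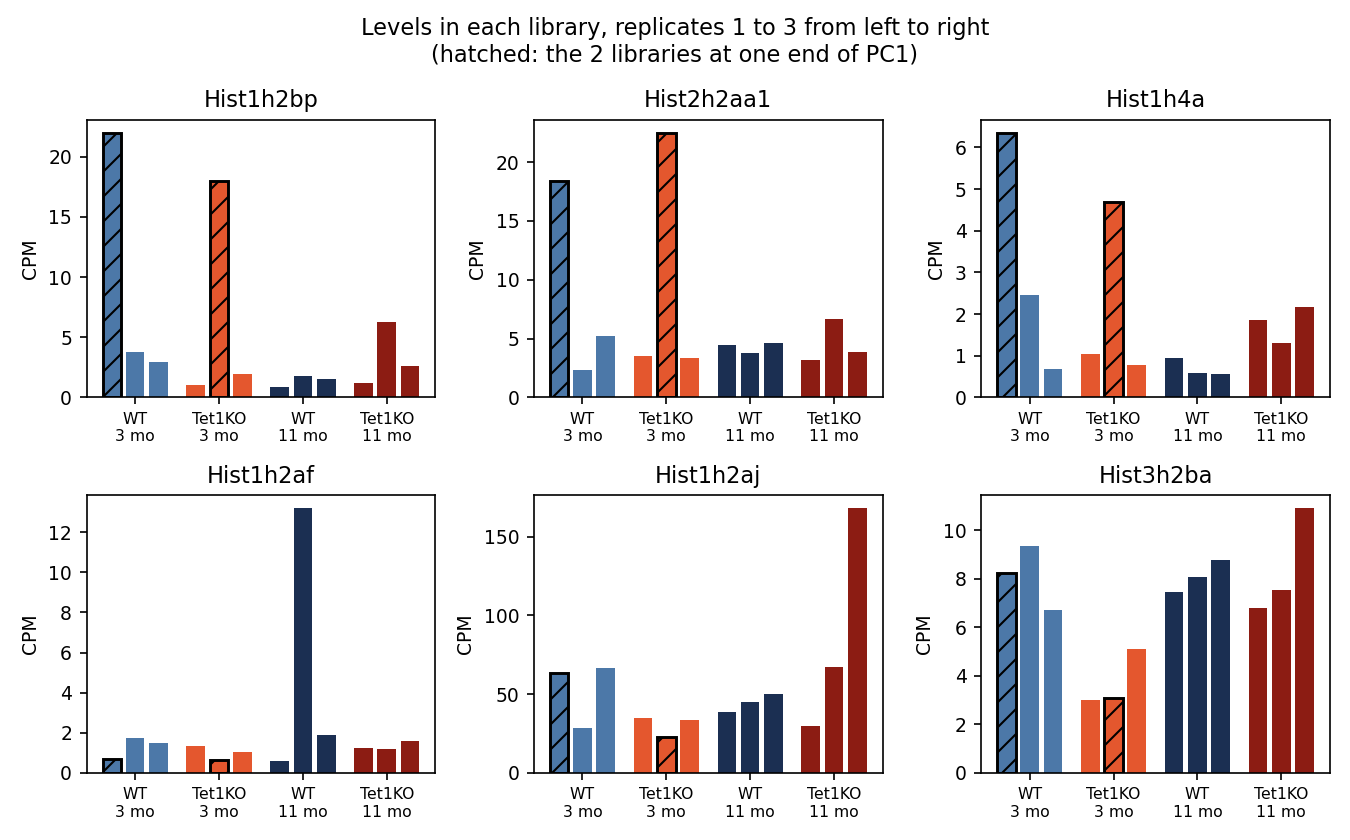
Level in CPM (bars from 0) of 6 members in each library, replicates 1 to 3 from left to right within a group, with the 2 libraries at one end of the first principal component hatched. Hist1h2bp, Hist2h2aa1 and Hist1h4a peak in the hatched libraries, Hist1h2af and Hist1h2aj in 1 other library each, and Hist3h2ba is low in the 3 Tet1KO libraries of 3 months.

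The genes that act on histone mRNA were detected in all groups. Of 15 genes for its expression and processing, all were tested and none passed the threshold in any comparison. Their values split 8 higher to 7 lower in Tet1KO at 3 months (median log2 fold change 0.00) and 5 to 10 at 11 months (median -0.12). Slbp, whose protein binds the stem-loop, had 648 ± 35.6 CPM (SD, n = 3) in WT against 689 ± 57.8 CPM in Tet1KO at 3 months, followed by 713 ± 12.5 CPM in WT against 622 ± 134 CPM in Tet1KO at 11 months. Npat, the activator of histone gene transcription, stood at 148 ± 36.3, 141 ± 42.8, 137 ± 18.8 and 140 ± 29.1 CPM in that order of groups.

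The 11 replacement and variant histone genes split 2 higher to 9 lower in Tet1KO at 3 months (median -0.05) and 3 to 8 at 11 months (median -0.09). H3f3b stood at 5340 ± 545, 5170 ± 758, 5800 ± 1020 and 5240 ± 1150 CPM in the 4 groups. Of the germ line histone, transition protein and protamine genes outside the clusters, 10 of 14 were tested, and all 10 had lower values at 3 months (median -0.50) and 9 higher values at 11 months (median 0.16). Prm2, a protamine gene of spermatids, stood at 419 ± 371 CPM in WT against 317 ± 130 CPM in Tet1KO at 3 months and at 361 ± 417 against 419 ± 348 CPM at 11 months, with a spread between libraries larger than any difference between groups. The 10 histone chaperone genes and 20 DNA replication genes had medians of 0.13 and -0.02 at 3 months and 0.04 and -0.04 at 11 months, and none passed the threshold.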

How the data were processed

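The deposited table gives raw counts, whole fragment counts per gene made by the authors with featureCounts 1.6.2 on GENCODE vM17, per the file headers. The headers also give unstranded counting at mapping quality 30 or above, with options to count multi-mapping fragments and those over several genes each time. How many multi-mapping fragments met that mapping quality is not given in the sources used here. HISAT2, SAMtools and mm10 come from the submitters' processing notes. No version of either tool is given in the sources used here. Symbols were matched for 53620 of 53715 genes.

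Counts were filtered with filterByExpr, scaled with TMM and tested with edgeR 4.0.16 in R 4.3.3, with 1 mean per group over 12 libraries, a two-sided quasi-likelihood F test (robust) and Benjamini-Hochberg adjustment at 0.05. Standard errors came from the F statistic. The procedure was tested on simulated data. Levels are TMM-scaled CPM, per kb of the deposited gene length where genes are compared. Sequences came from GENCODE vM21 transcripts and RefSeq promoters. The read length is not given in the sources used here, so windows of 75 bases were used.

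Named are the testis members, up to 4 tested members per family with the highest level per length, and the 5 smallest p-values per comparison; members with single high libraries and those whose groups do not overlap were added once their values were known. The members, lists and tests were chosen with earlier results of these data known. Replicate numbers are shared between genotypes. At 11 months same-numbered WT and Tet1KO libraries deviated together (r = 0.371, 0.167 and 0.332 across genes). At 3 months only those numbered 3 did (r = -0.589, -0.182 and 0.296). Differently numbered libraries of 3 months had higher values, with r = 0.706 for WT replicate 1 and Tet1KO replicate 2. For WT replicate 3 and Tet1KO replicate 1 of that age r was 0.479. Alternatives were other scalings and filters, DESeq2 1.42.0, limma-voom 3.58.1, a replicate block, the library code prefix as a covariate (DY for WT replicate 2 and Tet1KO replicate 1 of 3 months, AK for the rest), only the groups compared, a stricter threshold of 0.01 and fits without each library in turn. The H2A shares without Hist1h2ah and without members that share over 75% of their windows were chosen after seeing the data.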

Additional observations from a re-analysis of the deposited data

Results flagged for a closer look

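Hist1h2bk, a core H2B gene, was lower in all 3 Tet1KO libraries than in all WT libraries at 3 months and higher in all 3 at 11 months. The genotype effect at 11 months minus that at 3 months was 2.78 ± 0.82 (SE) on the log2 scale. This difference did not pass the threshold in edgeR (unadjusted p = 0.00573, adjusted p = 1). Without WT replicate 1 of 3 months, the highest WT library of that age at 4.08 CPM, the difference was 1.91, and the effect at 3 months was -0.79 in place of -1.66. The counts are low, at 0.647 to 4.09 CPM over the 12 libraries. Groups of 3 libraries were not examined for single outlying values.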

How the results depend on the processing

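No member passed the threshold in any of the 6 comparisons under any alternative, the replicate block included, where the count was 0 as in the fit without it. Over the alternatives, the members with an unadjusted p under 0.05 ranged from 2 to 5 for Tet1KO against WT at 3 months, 0 to 4 at 11 months, 1 to 6 over both ages, 0 to 7 for age in WT, 2 to 7 for age in Tet1KO and 1 to 4 for the difference of the genotype effect. Of 34 fold changes followed, 28 kept their direction throughout, and 15 of 769 values were reversed. Hist1h2aa at 3 months was 0.33 with limma-voom and from -0.5 to 0.48 when a library was left out, and at 11 months from -0.29 to 0.27. Hist1h2ba at 3 months was 0.03 with total counts only, 0.13 with limma-voom and from -0.21 to 0.25 when a library was left out. At 11 months it was -0.05 with the replicate block, -0.02 with limma-voom and from -0.33 to 0.41 when a library was left out. Hist1h2af ranged from -2.5 to 0.16 for genotype at 11 months and from -0.11 to 2.56 for age in WT, and the reversed values, 0.16 and -0.11, are those without WT replicate 2 of 11 months. For the others the cause was not tested. Members of low count (18 had under 50 counts in all) cannot be resolved at this depth.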
